A study of Mus musculus with 6 samples.

Results

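The 41 genes described here encode the force-producing and regulatory proteins of actomyosin: myosin heavy chains, myosin light chains, troponins, tropomyosins and the muscle actins. They were taken by symbol from the 24002 genes of an RNA-seq table: every symbol of the numbered Myh, Myl, Tnnc, Tnni, Tnnt and Tpm series, and Acta1, Acta2, Actc1 and Actg2. The rule itself uses symbols and no expression value. The rule gave 14 heavy chain, 11 light chain, 8 troponin, 4 tropomyosin and 4 muscle actin genes, and Mylpf, the fast skeletal regulatory light chain, is outside it by its symbol. The cells were R1, a mouse embryonic stem cell line, kept with 15% serum replacement and 1000 U/ml LIF, made into embryoid bodies by 48 h of hanging drop culture and then held in retinoic acid (0.5 mM as the labels state) until day 6. All 3 RNA-seq samples, and 3 ATAC-seq samples not used here, share this one condition, so levels can be given but no change from untreated cells. The labels do not tell whether the replicates were separate cultures, and the spread between them may be technical.

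Values are FPKM, fragments per length of transcript and per mapped fragments of the library, so levels of different genes can be set side by side. A gene is called expressed here at 1 FPKM or more in every replicate. The label "embryonic stem cell" describes the starting line: of 3 pluripotency markers, Nanog and Pou5f1 stood at 0.0879 ± 0.0318 and 0.815 ± 0.0792 FPKM (SD, n = 3) and Zfp42 was expressed at 2.14 ± 0.542, and all 13 neuron markers and all 12 neural progenitor markers examined were expressed. Read totals are unknown, but judged from the spacing of low values replicate 1 was sequenced 1.56 times as deeply as replicate 2 and 1.18 times as deeply as replicate 3.

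A conventional myosin is a pair of heavy chains, each carrying an essential and a regulatory light chain, and it pulls on actin filaments. In striated muscle, troponin and tropomyosin on the thin filament gate this pull by calcium. Outside muscle there is no troponin system, and non-muscle myosin II, switched on by phosphorylation of its regulatory light chain, drives cell division, cell shape, migration and growth cone turning. Myh9, Myh10 and Myh14 encode the heavy chains of non-muscle myosins IIA, IIB and IIC, of which IIB is known as a prominent form in developing neurons.

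The highest members were non-muscle light chains and tropomyosins, and most muscle members were near 0. The muscle members called expressed were Myl9 and Myl3, at 19.6 and 5.80 FPKM, and Tnnc1 and Myh7b, at 1.78 and 1.38. The non-muscle Myh14 stood at 2.01 FPKM. Expressed were 14 of the 41 (34.1%), against 50.7% of all genes in the table and 58.1% of those that RefSeq lists as protein-coding. All 7 non-muscle members and 3 of 4 tropomyosins were among them, with 1 of 4 smooth muscle members and 3 of the 26 members that belong to sarcomeres. The non-muscle class as drawn here includes Myl6, shared with smooth muscle, and Myl6b, shared with slow muscle. The median over the 41 members was 0.197 FPKM, beside 1.31 over all genes, and 6 members (Myh1, Myh2, Myh4, Myl2, Myl10 and Tnni2) were listed at 0 in every replicate, as were 23.2% of all genes. Means of at least 100 FPKM were reached by 3 members, Myl6, Myl12b and Tpm3, and by 2.19% of all genes. The 8 highest members held 93.3% of the summed mean FPKM of the family. In the order of the 14 expressed members, 6 neighbouring pairs had overlapping replicate ranges and are not separated: Myl6 and Myl12b, Tpm1 and Myh10, Myl9 and Myh9, Myh9 and Myl6b, Myh14 and Tnnc1, and Tnnc1 and Myh7b.

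**Figure D1:**
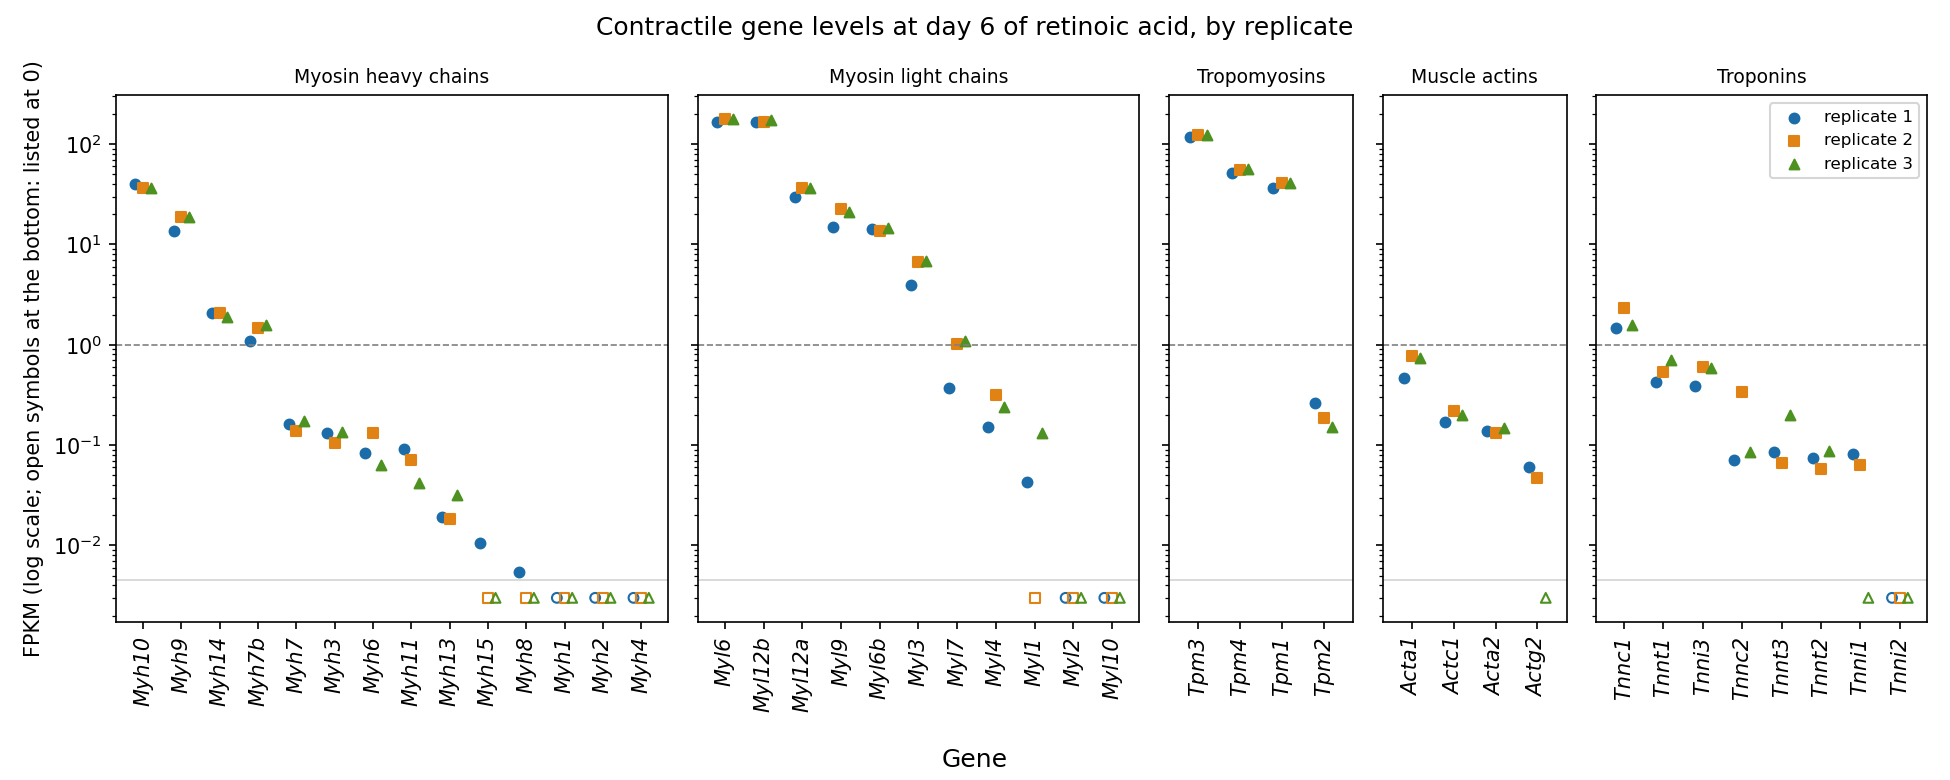
FPKM of each of the 41 genes in each of the 3 replicates (log axis), by gene group and ordered by mean; the dashed line marks 1 FPKM, and open symbols at the bottom are values listed at 0. Light chains and tropomyosins reach above 100 FPKM, all muscle actins lie under 1 FPKM, and every troponin other than Tnnc1 does too.

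Non-muscle heavy chains made up almost the whole heavy chain pool. Myh10 stood at 39.7, 36.5 and 36.8 FPKM in replicates 1, 2 and 3, and Myh9 at 13.8, 18.9 and 18.9. Myh10 was thus above Myh9 in every library, and the ranges of the 2 genes did not overlap. Myh14, which encodes the IIC form, stood far lower, at 2.07, 2.07 and 1.89 FPKM. Together the 3 genes held 96.9 ± 0.304% of the summed heavy chain FPKM (SD, n = 3), with Myh10 alone at 64.2 ± 4.59% and Myh9 at 29.2 ± 4.46%. The remaining expressed heavy chain was Myh7b, a slow-type myosin gene known from heart, slow muscle and brain, at 1.09, 1.47 and 1.57 FPKM, or 2.34 ± 0.378% of the pool. Myh11, the smooth muscle heavy chain, stood at 0.0920, 0.0716 and 0.0419 FPKM.

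The ratio of Myh10 to Myh9 differed between libraries. It was 2.88 in replicate 1, 1.93 in replicate 2 and 1.94 in replicate 3, with a mean log2 ratio of 1.14 ± 0.333 (SD, n = 3). A ratio inside a library does not depend on how the libraries were scaled. Replicate 1 alone set this spread: Myh10 was highest there and Myh9 lowest, and the other 2 libraries differed little.

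**Figure D2:**
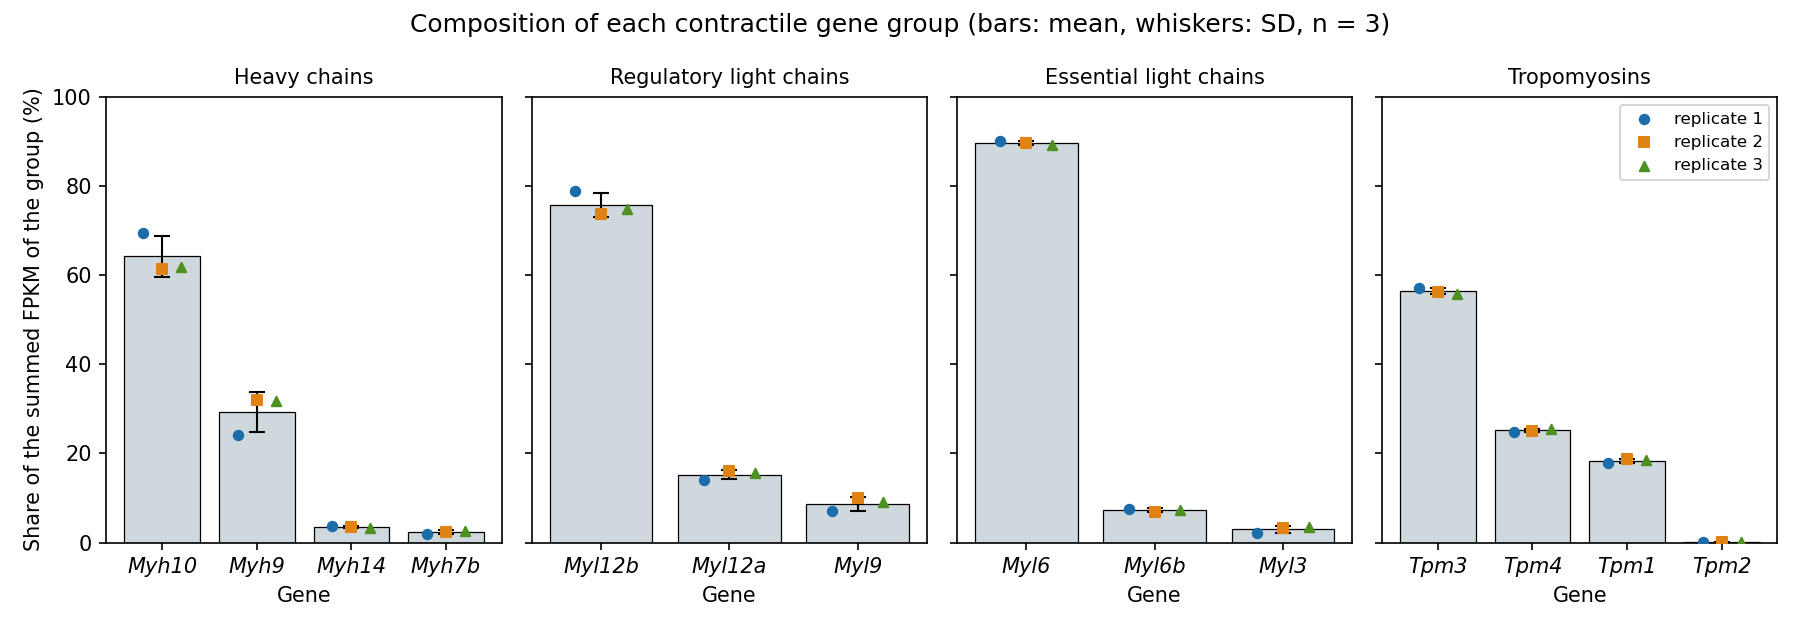
Share of each named gene in the summed FPKM of its group, in percent, with bars for the mean, whiskers for the SD (n = 3) and symbols for the replicates. Myh10, Myl12b, Myl6 and Tpm3 are the largest of their group in all 3 replicates, and the Myh10 and Myh9 shares of replicate 1 lie apart from those of the other replicates.

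The light chains of non-muscle myosin were the highest members. Myl6, the essential light chain of smooth and non-muscle myosin, stood at 167, 178 and 177 FPKM in the 3 replicates and ranked 278th of 24002 genes by its mean. Myl12b, a non-muscle regulatory light chain that carries the activating phosphorylation site, stood at 168, 167 and 175 FPKM. The ranges of these 2 genes overlapped, so their order is not settled by the replicates. Myl12a, the neighbouring gene for a nearly identical regulatory chain, stood at 29.9, 36.4 and 36.3 FPKM. Reads shared by Myl12a and Myl12b may have been divided between them by the authors' counting, which makes their ratio of 5.01 ± 0.531 (SD, n = 3) uncertain.

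Other light chains of the pool were smaller. Myl9, the regulatory light chain best known from smooth muscle, stood at 14.9, 22.5 and 21.3 FPKM and held 8.67 ± 1.51% of the summed regulatory light chain FPKM (SD, n = 3), against 75.8 ± 2.69% for Myl12b. Myl6b, an essential light chain of slow muscle and non-muscle cells and the gene next to Myl6, stood at 14.1, 13.7 and 14.6. It was the steadiest of these genes in relation to replicate 1, and Myl6 exceeded it 12.3 ± 0.604-fold. Summed light chains exceeded summed heavy chains in each library, by 3.31 ± 0.0629 for essential chains and 3.83 ± 0.0938 for regulatory chains as ratios of FPKM.

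Myl3 was the highest of the sarcomeric members. It encodes the essential light chain of ventricular and slow muscle myosin, and it stood at 3.94, 6.62 and 6.83 FPKM in the replicates. Myl7, the atrial regulatory light chain, stood at 0.368, 1.01 and 1.09 FPKM, so replicate 1 alone kept it under the threshold. Myl4, the atrial and embryonic essential chain, stood at 0.151, 0.314 and 0.237. All 3 were lower in replicate 1 than in both other replicates. Myl2, the partner of Myl3 in ventricular myosin, was listed at 0 in every replicate, and Myl1 of fast muscle stood at 0.0430, 0 and 0.133.

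Tropomyosins, which bind along actin filaments in all cells, were high apart from Tpm2. Some of their genes, Tpm1 and Tpm3 among them, make both muscle and non-muscle forms. Tpm3 stood at 117, 124 and 122 FPKM, Tpm4 at 51.0, 54.9 and 55.9, and Tpm1 at 36.5, 41.1 and 40.7. The ranges of these 3 genes did not overlap, and the order Tpm3, Tpm4, Tpm1 held in every library. Tpm3 made up 56.4 ± 0.697% of the summed tropomyosin FPKM (SD, n = 3), Tpm4 25.1 ± 0.366% and Tpm1 18.4 ± 0.482%. Tpm2, best known from muscle, held 0.0939 ± 0.0302%, at 0.262, 0.186 and 0.152 FPKM. The table gives 1 value per gene, so muscle and non-muscle transcripts of Tpm1 and Tpm3 cannot be told apart.

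Troponin genes were low, with Tnnc1 as the exception. Tnnc1, the calcium-binding subunit of heart and slow muscle, stood at 1.47, 2.30 and 1.57 FPKM, with replicate 2 above both others. Its partners in heart stood lower: Tnni3, the inhibitory subunit, at 0.387, 0.606 and 0.588, and Tnnt2, the tropomyosin-binding subunit, at 0.0742, 0.0580 and 0.0874. Tnnt1 of slow muscle stood at 0.427, 0.534 and 0.705 and its partner Tnni1 at 0.0811, 0.0634 and 0. No complete troponin set of heart, slow or fast muscle was expressed, and the 3 fast skeletal troponins had means of at most 0.164 FPKM. Tnni3 and Tnnt1 are adjacent genes with no protein-coding gene between them in RefSeq (GRCm38.p6), and Tnnt1 lay close to it in level.

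The 4 muscle actins summed to 0.841, 1.18 and 1.09 FPKM. Acta1, the skeletal actin, was the highest at 0.472, 0.777 and 0.740, followed by the cardiac Actc1 at 0.170, 0.221 and 0.200. Of the smooth muscle actins, Acta2 stood at 0.140, 0.131 and 0.148 FPKM and Actg2 at 0.0603, 0.0471 and 0. Against this, the cytoplasmic actins Actb and Actg1 stood at 907 ± 11.1 and 1152 ± 29.5 FPKM (SD, n = 3), and muscle actin FPKM amounted to 0.503 ± 0.0905 per 1000 of their sum. Actin genes have nearly identical coding sequences, and the sources used here do not say how reads were divided among them.

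The skeletal heavy chains lie side by side on chromosome 11 in the order Myh3, Myh2, Myh1, Myh4, Myh8 and Myh13, by RefSeq. Myh3, the embryonic isoform, stood at 0.133, 0.105 and 0.134 FPKM. Myh8, the perinatal one, was listed at 0.00549 in replicate 1 and 0 in the others. The cardiac pair Myh6 and Myh7, neighbours on chromosome 14, had means of 0.0927 and 0.158 FPKM. Non-muscle neighbours looked different: Myl12a and Myl12b on chromosome 17 were both expressed, as were Myl6 and Myl6b on chromosome 10.

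Of the low members, 18 were above 0 in both replicate 1 and replicate 2. In 5 of them (Actg2, Myh11, Tnni1, Tnnt2 and Tnnt3) the FPKM of replicate 1 over that of replicate 2 was 1.28, which at a depth ratio of 1.56 is within 0.02 of a fragment ratio of 2. Equal steps of this kind arise where a gene has very few fragments.

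Heavy chain genes also host microRNAs that regulate muscle genes, and the 3 below are shown because their hosts are members and because their seeds (bases 2 to 8, in capitals) are shared or nearly so. RefSeq (GRCm38.p6) places Mir499 inside Myh7b, Mir208a inside Myh6 and Mir208b inside Myh7. The mature arms shown lie at chr2:155622893-155622913 on the plus strand for miR-499-5p and, on the minus strand, at chr14:54949072-54949093 for miR-208a-3p and chr14:54975710-54975731 for miR-208b-3p.
mmu-miR-208a-3p: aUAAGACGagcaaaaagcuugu
mmu-miR-208b-3p: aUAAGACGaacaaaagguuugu
mmu-miR-499-5p: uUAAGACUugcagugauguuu
The 3p arms of miR-208a and miR-208b carry the seed UAAGACG and miR-499-5p carries UAAGACU. All 3 microRNA genes were listed at 0 in every replicate, beside host means of 0.0927 FPKM for Myh6, 0.158 for Myh7 and 1.38 for Myh7b. These zeros are not read as levels of mature microRNAs, which libraries of polyadenylated RNA, if such were used, do not measure.

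Across replicates, the expressed members did not move as a block. Of the 14, 10 had their lowest value in replicate 1, and the same held for 36.5% of the 12432 genes that averaged 1 FPKM or more. The spread reached from Myl3, which in replicate 1 stood at 58.5% of its mean in replicates 2 and 3, to Myh10, at 108%. Myl9 stood at 68.0%, Myh7b at 71.9%, Myh9 at 72.7% and Tnnc1 at 75.8%. Myl12a followed at 82.3%, and the tropomyosins and Myl6 lay between 89.3% and 95.3%. Myl12b, Myl6b and Myh14, at 98.1%, 99.5% and 104%, did not have their lowest value there, nor did Myh10.

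Among all genes that averaged 1 FPKM or more, some of these ratios were far from the centre. Myl3 lay at percentile 0.660 of the ratio of replicate 1 to the mean of the other libraries, Myl9 at percentile 2.01, Myh7b at 2.86, Myh9 at 3.10 and Tnnc1 at 3.98. For Tnnc1, replicate 2 alone stood apart, at 2.30 FPKM beside 1.47 and 1.57 in replicates 1 and 3. Myh10 lay at percentile 87.3. The median log2 deviation of the 14 members from their own means was -0.09, 0.05 and 0.04 in replicates 1, 2 and 3, beside 0.00, 0.00 and 0.00 for all genes. With 3 libraries of a single condition no test of this difference is available, and it is given as a description.

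Some markers of other cell types were also lower in replicate 1, and others were not. Replicate 1 had the lowest value of the 3 libraries for 22 of the 23 extraembryonic endoderm markers that averaged 1 FPKM or more. The summed level of all 24 markers was 668, 942 and 950 FPKM in the 3 replicates, so that replicate 1 stood at 70.6% of the others, and none was listed at 0. Gata4, Sox17 and Dab2 stood in replicate 1 at 65.1%, 67.6% and 73.1% of the other libraries, beside 68.0% for Myl9 and 72.7% for Myh9. Such values were not confined to endoderm markers. The pluripotency marker Zfp42 stood at 62.3%, and the sum of 46 other sarcomere and striated muscle genes, mostly near 0, at 69.6%. Neuron markers went the other way, with sums of 3415, 3272 and 3248 FPKM and none of 13 lower in replicate 1. Neural progenitor markers summed to 1540, 1516 and 1497, and 2 of 12 were lower in replicate 1. The part of these cell types in the member values was not tested. In bulk samples, fewer cells of a type and less RNA per cell cannot be told apart.

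**Figure D3:**
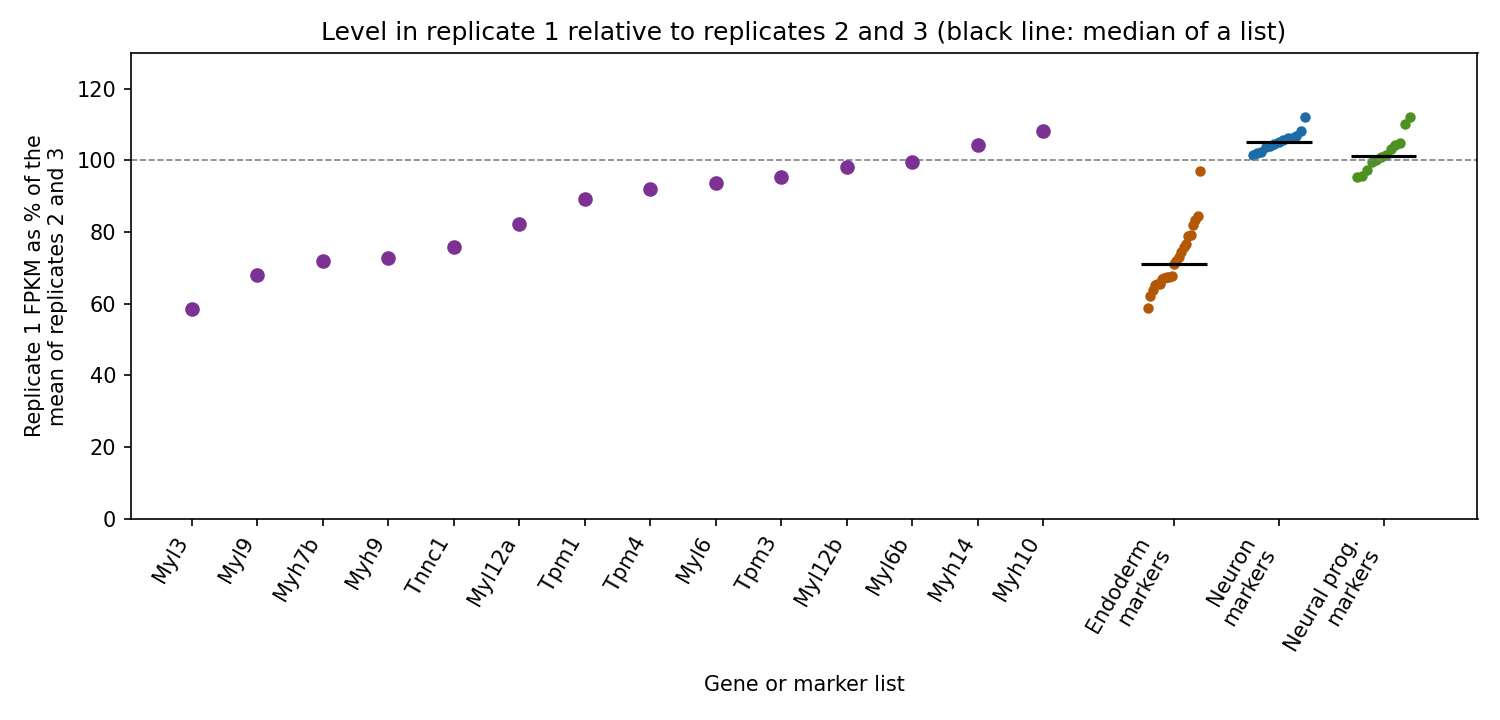
FPKM in replicate 1 as a percentage of the mean of replicates 2 and 3, for the 14 expressed members and for marker genes averaging 1 FPKM or more; each point is a gene and black lines are list medians. Myl9, Myh7b, Myh9 and Tnnc1 lie between 68.0% and 75.8%, within the wide spread of the endoderm markers (58.8% to 97.2%). Myl12a, Myl6, Tpm1, Tpm3 and Tpm4, between 82.3% and 95.3%, lie within it too. For Tnnc1 replicate 2 alone stood apart (1.47, 2.30 and 1.57 FPKM in replicates 1, 2 and 3). Myl3 at 58.5% lies just under the lowest endoderm marker (Krt8, 58.8%). Myh10 at 108% and Myh14 at 104% lie within the spread of both the neuron and the neural progenitor markers.

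Markers of muscle, vessels and fibroblasts were near 0. None of 46 other sarcomere and striated muscle genes was expressed, and their sum was 6.45, 8.99 and 9.55 FPKM. The highest were Mylpf at 0.502, 1.57 and 1.41 FPKM, Mybpc3, a thick filament protein of heart, at 0.605, 1.28 and 1.35, and Ryr2, a calcium release channel also used in neurons, at 0.915, 0.921 and 0.861. Mylpf and Mybpc3 were lower in replicate 1, at 33.7% and 46.0% of the other libraries, and Ryr2 was not. Ttn, the giant spring protein of the sarcomere, stood at 0.00974 ± 0.00374 FPKM (SD, n = 3) and Actn2 of the Z disc at 0.352 ± 0.113. Listed at 0 in every replicate were 6 of the 46 genes of this list, among them Mb, which encodes myoglobin, beside 23.2% of all genes. Of 12 endothelial and blood markers and of 12 fibroblast markers none was expressed, with sums between 1.67 and 2.20 FPKM and between 2.29 and 2.98.

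Of the smooth muscle and mural cell genes 5 of 16 were expressed. Mcam, Cald1 and Notch3, which are not confined to smooth muscle, led with 9.41 ± 0.186, 7.25 ± 0.235 and 5.71 ± 0.348 FPKM (SD, n = 3). Tagln, a smooth muscle actin-binding protein, stood at 0.871, 1.36 and 1.42 FPKM and Cnn1, a calponin of smooth muscle, at 0.0745, 0 and 0.219. Neither reached 1 FPKM in every replicate, and Tagln was again lowest in replicate 1.

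**Figure D4:**
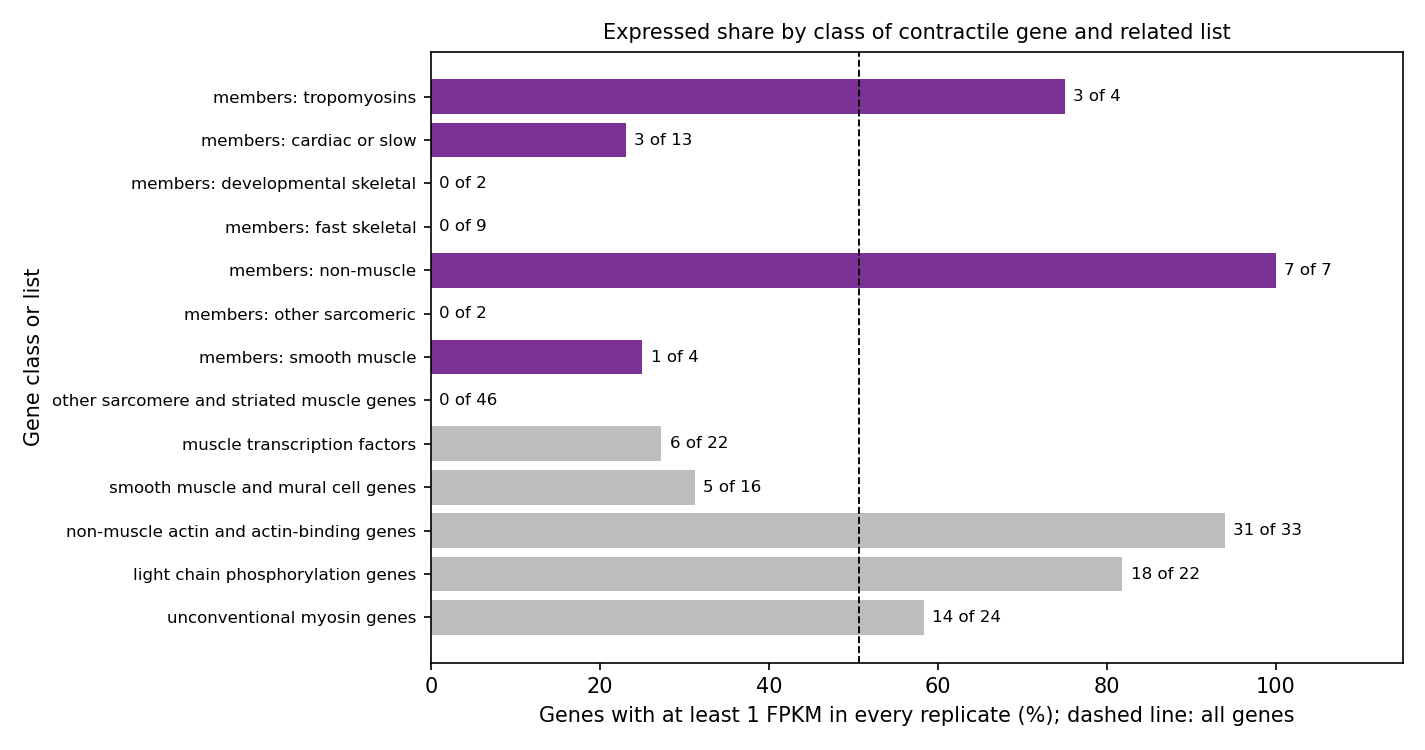
Percentage of genes with at least 1 FPKM in every replicate, for each class of the 41 members (purple) and for related gene lists (grey), with counts beside the bars and a dashed line at 50.7%, the value for all genes. All 7 non-muscle members, a class that includes Myl6 and Myl6b, both shared with muscle, are expressed. None of 9 fast skeletal members and none of 46 other sarcomere genes is.

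Genes that act on non-muscle actomyosin were mostly expressed, but not the Mylk genes, which encode the dedicated myosin light chain kinases. Of 33 cytoplasmic actin and actin-binding genes 31 were expressed, with a median of 55.9 FPKM; the formin genes Diap2 and Diap3 were not, and Actg1, Tmsb10, which encodes an actin monomer-binding thymosin, and the actin-severing Cfl1 were the highest. Of 22 genes of light chain phosphorylation and its control 18 were expressed, led by Ppp1r14b, an inhibitor of protein phosphatase 1, at 190.0 ± 0.732 FPKM (SD, n = 3), Rhoa at 107 ± 2.74 and Rhob at 87.4 ± 2.39. The 4 genes of this list below the threshold were Mylk at 0.164 ± 0.0147 FPKM, Mylk4 at 0.0326 ± 0.0145, Mylk3 at 0.00991 ± 0.00866 and Mylk2, listed at 0. The kinase genes Rock1 and Rock2, whose products also phosphorylate the regulatory light chain, stood at 5.37 ± 0.0415 and 7.96 ± 0.0326 FPKM. Of the 18 expressed genes of this list 9 had their lowest value in replicate 1, beside the 36.5% of all genes. Among them were Rhoc (60.5, 74.7 and 77.8 FPKM) and Ppp1r14a (7.51, 10.3 and 10.6), named after their values were seen.

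Among transcription factors of muscle, those used in many tissues were expressed and those that specify muscle were near 0. Expressed were 6 of 22: Srf at 11.7 ± 0.404 FPKM (SD, n = 3), its actin-regulated coactivators Mkl1 and Mkl2 at 10.6 ± 0.217 and 3.21 ± 0.108, Mef2a at 10.03 ± 0.178, Tead1 at 9.44 ± 0.566 and Mef2d at 8.64 ± 0.247. The skeletal muscle determination factors were near 0, with Myod1 at 0.0278 ± 0.0322 and Myog at 0.0503 ± 0.0253. Srf had its lowest value in replicate 1, at 94.9% of the other libraries, and Mkl1, at 98.8%, did not.

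Srf binds the CArG box, a sequence of 10 bases with a core of A or T between CC and GG, which reads as the same class on both strands. RefSeq windows from 250 bases before to 50 after a start site (GRCm38.p6) were found for 37 of the 41 members, and 8 of these genes (21.6%) held a CArG box, against 1.81% of 27025 genes. The box was present in 3 of 14 expressed members (Myl3, Myl6 and Myl9) and 5 of 23 others (Acta1, Actc1, Myl7, Myh4 and Myh13). The motif CATTCC, known as MCAT and bound by Tead factors, was searched on both strands and stood in 15 of the 37 genes (40.5%) against 16.6% of all; no match overlapped a CArG box. Stretches before the start of 5 members with a CArG box follow. They were picked after their values were seen, as light chain and actin genes with their lowest value in replicate 1. A link between the box and that replicate was not tested, and Myl7, Acta1 and Actc1 averaged under 1 FPKM. Myl6, also lowest in replicate 1, is left out because its box stands before the second of its 2 listed starts. The boxes of Myh4 and Myh13 are not shown either. In each stretch capitals mark the CArG box and any CATTCC.
Myl9: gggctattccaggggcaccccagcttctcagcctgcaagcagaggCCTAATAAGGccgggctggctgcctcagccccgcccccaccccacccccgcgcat
Myl3: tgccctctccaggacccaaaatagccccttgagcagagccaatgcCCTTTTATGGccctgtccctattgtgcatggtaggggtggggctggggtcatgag
Myl7: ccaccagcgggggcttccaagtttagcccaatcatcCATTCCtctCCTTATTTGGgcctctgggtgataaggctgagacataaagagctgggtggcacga
Acta1: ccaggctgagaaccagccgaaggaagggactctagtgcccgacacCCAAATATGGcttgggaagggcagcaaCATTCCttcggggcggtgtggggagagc
Actc1: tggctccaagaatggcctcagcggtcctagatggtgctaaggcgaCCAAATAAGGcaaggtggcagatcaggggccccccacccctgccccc

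The stretches lie at chr2:156775258-156775357 (Myl9, plus strand), chr9:110763548-110763647 (Myl3, plus strand), chr11:5898789-5898888 (Myl7, minus strand), chr8:123894794-123894893 (Acta1, minus strand) and chr2:114052876-114052967 (Actc1, minus strand). The box began 161 bases before the start of Myl9, 85 before that of Myl3, 61 before that of Myl7, 73 before that of Acta1 and 47 before that of Actc1. Such a match is a description of the sequence and no evidence of binding. Genes with a box ranged from Myl6 at 174 FPKM to Myh4, listed at 0. Of the expressed members lowest in replicate 1, Myl3, Myl6 and Myl9 had a box. Myl12a, Myh7b, Myh9, Tnnc1, Tpm1, Tpm3 and Tpm4, also lowest there, had none in their windows. Myh10, Myh14, Myl6b and Myl12b, which were not lowest there, had none either. Whether the box and that replicate are linked was not tested.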

How the data were processed

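RNA from 3 samples of retinoic acid-treated R1 cells was examined. The authors deposited 1 table with a column per replicate. Its header names no unit, and the values were read as FPKM because the submitters' processing notes name Cufflinks, beside Bowtie and mm9; these sources give no versions, strand use or library scaling. A deposited 0 can be a failed estimate. The joint ATAC-seq regions were not used because no mm9 gene annotation was at hand.

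Columns were matched to samples by title. The 41 symbols were all found in the Ensembl and RefSeq name tables. Means, SDs, shares and counts were computed with pandas 2.3.3 and numpy 2.4.6. Deviations use log2(FPKM + 1), which understates changes of low genes, and genes averaging 1 FPKM or more. Relative depth was the most common ratio of values between 0.001 and 0.1 FPKM, read as equal fragment numbers (tolerance 0.004, natural log). No test between groups was possible with a single condition. Sequences come from RefSeq (GRCm38.p6), and coordinates are those of that build.

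All members averaging 1 FPKM or more are named, with list members by rank (the 3 highest, and fixed markers) or as said, and the other list members by counts; 1 gene among the 3 highest of a list is not reported here. Members, classes and lists were chosen with earlier results of these data known. Alternatives were other thresholds, filters, scalings and pseudocounts, and each replicate left out.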

Additional observations from a re-analysis of the deposited data

How the results depend on the processing

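The number of expressed members was 14 at a threshold of 0.5 FPKM and under both other scalings, 10 at 5 FPKM, and 14 to 15 with a replicate left out; the added gene without replicate 1 was Myl7. The median of members was 1.58 FPKM when those under 0.1 FPKM were dropped, which removes the members near 0 by construction, and 0.185 to 0.210 with a replicate left out. The non-muscle share of heavy chains ranged from 96.7% to 97.0% and the log2 ratio of Myh10 to Myh9 from 0.95, without replicate 1, to 1.24. Members lower in replicate 1 numbered 17 of 35 (48.6%) without a filter on low values and 8 of 11 (72.7%) at 5 FPKM. The share of all genes was not computed for either setting, so these counts cannot be set against it. Such members numbered 10 under upper quartile scaling, where all genes stood at 30.9%. Under median of ratios scaling, an alternative chosen after seeing the data, they numbered 11, and all genes stood at 38.5%. The median deviation of the members in replicate 1 stayed below 0, from -0.10 to -0.03. Under upper quartile scaling all 14 means of the expressed members lay within 1 SD of the main value; leaving out 1 of 3 replicates cannot move a mean beyond that. Read totals are unknown, so values under 1 FPKM carry no counting interval. No paired analysis was possible because the RNA-seq and ATAC-seq samples share replicate numbers but not a measurement, and no groups were compared.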

Other observations

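Myosins of other classes, many of which carry cargo or link membranes to actin, were expressed in part. Of 24 such genes, 14 reached 1 FPKM in every replicate (58.3%), with a list median of 2.08 FPKM. That share lay near those of all genes (50.7%) and of protein-coding genes (58.1%). The highest were Myo18a, at 24.6, 24.1 and 22.8 FPKM in replicates 1, 2 and 3, and Myo5a, a vesicle motor of neurons, at 23.7, 21.8 and 20.8. Myo18a and Myo5a were highest in replicate 1, as was Myh10, but 8 of the 14 expressed genes of the list had their lowest value there, beside 36.5% of all genes averaging 1 FPKM or more. Summed over the list, FPKM stood at 109, 113 and 109, beside 57.1, 59.4 and 59.6 for the 14 heavy chains of conventional myosins.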
